A study of Mus musculus with 3 samples.

Results

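The neuronal RNA-binding and splicing factors described here are the products of 10 genes, Rbfox1, Rbfox2, Rbfox3, Celf2, Celf4, Celf5, Elavl2, Elavl3, Elavl4 and Nova1. They were picked by symbol from the 30559 genes of the deposited matrices, and each was found once. RNA of single nuclei was counted as unique molecular identifiers (UMIs, 1 per captured RNA molecule) in 3 libraries from cultures of neurospheres, floating clusters of neural stem cells grown from the subventricular zone of newborn mice on a C57BL/6 background. According to the methods, each library was a pool of about 15 cultures, taken on day 15 in vitro after differentiation was induced, with 16000 nuclei loaded after sorting for the red reporter of a lentivirus. The control library, labelled control, came from cultures given a lentivirus with RFP, and the line of mice behind them was not stated. The CBP-ablated library, labelled CBPf/f, came from Crebbp f/f cultures and the p300-ablated library, labelled p300f/f, from Ep300 f/f cultures, each given a lentivirus with Cre and mCherry, whereas the labels of all 3 libraries name tamoxifen as the treatment. CBP and p300 are related lysine acetyltransferases that act as coactivators of transcription, and CBP is named after its binding to CREB.

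RNA-binding proteins of these families decide which exons a neuron keeps and how long its transcripts last. Rbfox proteins bind UGCAUG in introns beside alternative exons, and NOVA proteins bind clusters of YCAY. CELF proteins act on splicing and on the stability and translation of RNA, and ELAVL (Hu) proteins bind sequences rich in A and U, mostly in 3′ ends of transcripts. Antibodies to the product of Rbfox3, known as NeuN, and to the Hu proteins are common stains for neurons, whereas Rbfox2 is expressed far outside the nervous system.

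Members of a family are similar in sequence, so the stretches they share were measured first. Across all pairs of annotated transcripts with a coding part in GENCODE M21 (GRCm38), the longest identical run between 2 members of a family was 14 to 29 bases in the coding sequence, over 9 pairs of genes, against reads of 75 bases. The longest run of the Rbfox family and the longer 2 of the ELAVL family are shown as the stretches in which an exonic read is least able to tell 2 of these genes apart, with both genes named in each line. Celf4 and Celf5 shared 26 bases, which are not printed.

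Rbfox1 and Rbfox2: accgtggtagagggccgtaaaatcgaggt
Elavl3 and Elavl4: ttcggcttcgtcaccatgaccaactacga
Elavl2 and Elavl4: accatgacccagaaggagctgga

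No pair shared a run as long as a read, and no longer run was found when the whole transcripts of the Rbfox and ELAVL members were compared. Reads from introns, which were counted too, were not compared. Of the genes that overlap a member and were counted, Gm49318 lies on the strand of Elavl3 and had 36, 36 and 67 UMIs in control, CBP-ablated and p300-ablated. Reads from the stretch that both genes cover could have been lost to Elavl3, and these UMIs do not show how many. Antisense partners of Rbfox2, Rbfox3, Celf2, Celf4 and Celf5 had between 0 and 87 UMIs a library.

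For Rbfox1, on which most of the results turn, RefSeq listed 2 transcription starts over 1 megabase apart on the plus strand of chromosome 16, and the windows from 250 bases before to 50 bases after each start (GRCm38.p6) are given below. Both were searched on both strands for the cyclic AMP response element that CREB binds, as its full site TGACGTCA and its half-site TGACG, which lies within the full site and whose matches would stand in capitals.

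Rbfox1, start 1, chr16:5884543-5884842: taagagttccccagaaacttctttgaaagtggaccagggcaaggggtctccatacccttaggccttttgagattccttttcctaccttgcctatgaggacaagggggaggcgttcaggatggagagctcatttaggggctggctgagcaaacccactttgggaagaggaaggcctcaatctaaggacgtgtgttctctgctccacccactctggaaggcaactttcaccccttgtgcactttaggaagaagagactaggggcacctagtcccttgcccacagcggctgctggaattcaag
Rbfox1, start 2, chr16:7069585-7069884: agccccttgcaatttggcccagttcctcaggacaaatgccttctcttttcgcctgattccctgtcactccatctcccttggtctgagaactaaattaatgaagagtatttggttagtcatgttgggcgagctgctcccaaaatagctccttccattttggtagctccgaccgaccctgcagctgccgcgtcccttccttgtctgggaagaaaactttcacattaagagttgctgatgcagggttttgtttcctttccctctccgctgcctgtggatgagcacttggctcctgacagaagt

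Neither window held either site, and their GC content was 52.7% and 50%. Windows were listed for 8 of the 10 genes (25 windows), of which 8 windows of 3 genes (Celf5, Elavl2 and Elavl4) held the half-site and 0 the full site. Some of these windows overlap: starts 4, 5 and 6 of Elavl2 hold the same half-site, as do starts 2 and 3 of Elavl4. Of all 32851 windows in the table, 20.8% held the half-site and 1.79% the full site.

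The libraries held 4884, 3017 and 4648 nuclei with 16312170, 12748336 and 18876682 UMIs, in the order control, CBP-ablated, p300-ablated. The median nucleus had 3219 to 4016 UMIs, and pairs of libraries shared 1 to 7 cell barcodes. The 10 genes together took 0.263%, 0.214% and 0.289% of the UMIs. With 1 library per condition there was no replicate and no test between conditions. All intervals in parentheses are 95% intervals that cover counting error only. They are exact Poisson for a level in CPM, which scales the UMIs of a gene to 1 common total per library or class, exact Clopper-Pearson for a share and conditional binomial for a log2 ratio of CPM, in which negative values mean lower in the ablated library. The floxed genes did not check the labels: Crebbp had 335, 369.5 and 365 CPM and Ep300 114, 136 and 115 CPM, counted over whole genes of which Cre removes 1 exon.

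Clustering of the merged nuclei gave 12 clusters, of which 10 were named from marker lists. They were neuron-like (101, 169 and 87 nuclei), NPC/OPC-like (in the study's naming, neuronal and oligodendrocyte progenitors; 1088, 418 and 1758), RGC/PSC-like (radial glia or stem cells), glial progenitor-like, astrocyte-like (1280 nuclei, all of the control library), committed oligodendrocyte precursor-like, oligodendrocyte-like, proliferating-like, microglia-like, and a class marked by Kcnj6 and Nell2 that the study called immature neurons (362, 260 and 511). The NPC/OPC-like class was named here from 8 markers, all raised in it, among them Pdgfra and Cspg4, genes of oligodendrocyte precursors. Its neuronal part rests on the study's name. Of the 8 markers of neurons, 7 were raised in the neuron-like class, and the other, Tubb3, had no UMI in any library. The Kcnj6/Nell2 class carried general neuronal markers unevenly: in control, Snap25 had 64.7 CPM there against 321 in neuron-like nuclei, Syt1 47.1 against 574, Dcx 71.1 against 431 and Stmn2 0 against 101, but Map2 had 1208 against 1576. NPC/OPC-like nuclei of control had Snap25 at 84.1 CPM, Syt1 at 37.3, Dcx at 52.4, Stmn2 at 1.11 and Map2 at 1047. Committed oligodendrocyte precursor-like nuclei of control had Map2 at 1206 CPM, with Snap25 at 16.2, Syt1 at 21.0 and Dcx at 24.5. The Map2 level therefore did not set the Kcnj6/Nell2 class apart from these classes. The Kcnj6/Nell2 class is called by its genes here.

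The 10 genes fell into different patterns over the classes, and only some of them peaked in neurons. The 5 genes Rbfox1, Rbfox3, Celf2, Celf4 and Celf5 had their highest level, over the 3 libraries together, in neuron-like nuclei, as did Rbfox2 by a small margin. Nova1 was highest in NPC/OPC-like, Elavl4 in proliferating-like and Elavl2 in Kcnj6/Nell2 nuclei, and Elavl3 was highest in oligodendrocyte-like nuclei. The top class of Nova1, Elavl4 and Elavl2 changed with the library. In control, Elavl2 had 104 CPM in neuron-like and 89.5 in Kcnj6/Nell2 nuclei. Elavl4 had 59.3 CPM in NPC/OPC-like and 57.0 in proliferating-like nuclei of control. In CBP-ablated, Nova1 had 1246 CPM in Kcnj6/Nell2 and 976 in NPC/OPC-like nuclei. Since the clusters were made from these same nuclei, and 5 of the genes (Celf2, Celf4, Nova1, Rbfox1 and Rbfox3) were among the 1576 genes used, the order of classes is a description. Clustering without the 10 genes kept 98.3% of the NPC/OPC-like nuclei, 99.5% of the Kcnj6/Nell2 nuclei and 100% of the neuron-like nuclei in their classes. It kept 89.4% of the RGC/PSC-like nuclei, the least of the named classes.

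**Figure D1:**
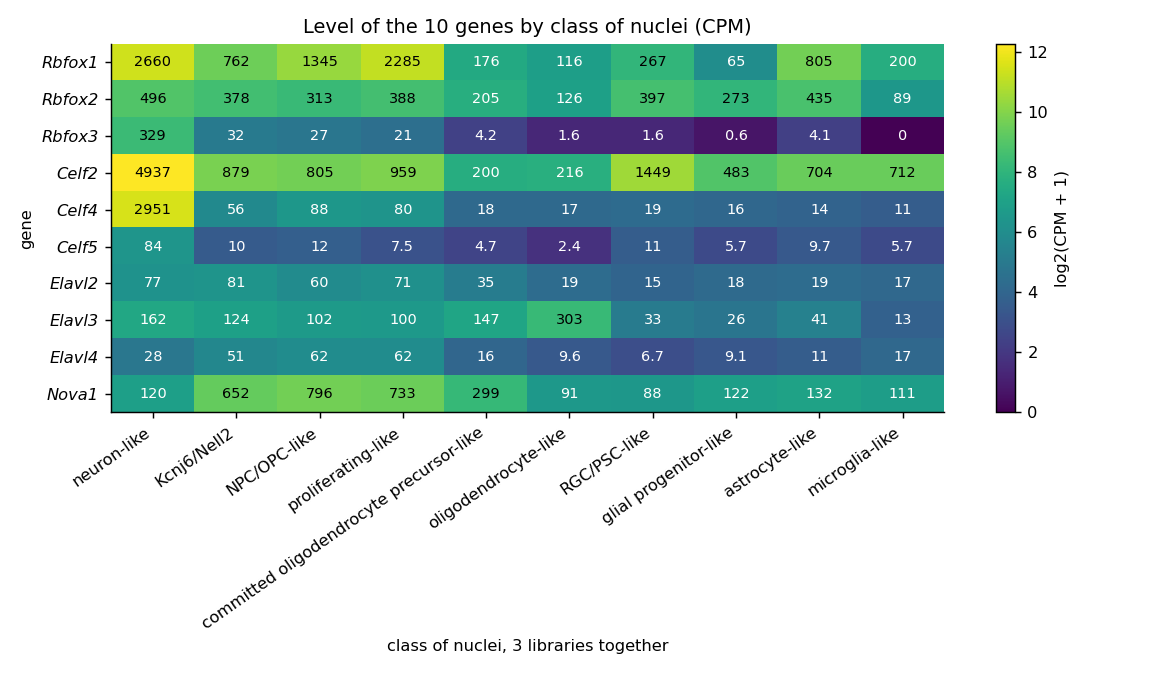
Level of each of the 10 genes (rows) in each class of nuclei (columns), with the 3 libraries together. Numbers are CPM and colours are log2(CPM + 1). Celf4 had 2951 CPM in neuron-like nuclei and at most 87.7 in any other class, while Nova1 had 796 in NPC/OPC-like and 120.5 in neuron-like nuclei.

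Introns were counted, and CPM of different genes set side by side are not scaled for the length of the gene. The genes were therefore ranked per kilobase of gene body. By this measure, in CPM per kilobase over all nuclei and in the order control, CBP-ablated, p300-ablated, Nova1 (2.97, 2.94, 3.31), Elavl3 (2.22, 3.99, 2.81) and Rbfox2 (1.45, 1.17, 1.42) were highest and Rbfox3 (0.0516, 0.0480, 0.0462) lowest. Rbfox1, with a gene body of 1526 kilobases, had 0.553 CPM per kilobase in control. Celf5, with only 12.6 CPM in control, had 0.538. The ranking is therefore no corrected order of expression. These are 3′ libraries, in which a spliced transcript is counted near its end whatever the length of its gene. The share of UMIs from introns is not recorded.

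In whole libraries, Rbfox1 was the only one of the 10 genes at least 1.5-fold lower in the CBP-ablated library, and Celf4 and Elavl3 were at least 1.5-fold higher. All 10 genes passed the filter of 100 UMIs in the 2 libraries together. Of all 11883 genes that passed it, 9.97% were at least 1.5-fold lower and 7.9% at least 1.5-fold higher, so 1 and 2 of 10 are near the background. In the p300-ablated library none of the 10 passed 1.5-fold in either direction, against 7.77% lower and 4.37% higher of 12247 genes. The median log2 ratio of the 10 was −0.063 (CBP-ablated) and 0.14 (p300-ablated), beside 0.058 and −0.035 for all genes. The comparisons share the control library. In such whole-library sums, fewer nuclei of a type and less RNA per nucleus cannot be told apart, and the mix of classes differed: neuron-like nuclei gave 1.89%, 4.65% and 1.74% of all UMIs and oligodendrocyte-like nuclei 5.17%, 23.1% and 6.29%. Each gene was therefore also read within classes.

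**Figure D2:**
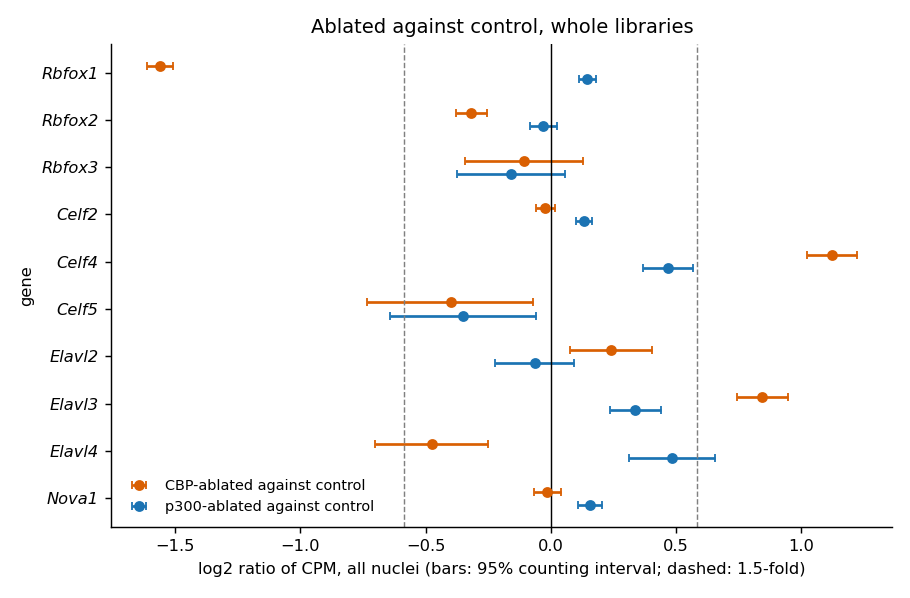
Log2 ratio of CPM, each ablated library against control, over all nuclei for the 10 genes, with 95% counting intervals as bars and 1.5-fold as dashed lines. Rbfox1 in the CBP-ablated library sits at −1.56, far left of the other genes, and Celf4 and Elavl3 lie beyond the right dashed line in that library.

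Rbfox1 (ENSMUSG00000008658, chromosome 16 from 5885355 to 7411526) is a splicing regulator of neurons, muscle and heart. Before any subtraction of free RNA, its level in the CBP-ablated library was below control in all 9 classes that could be compared. In the p300-ablated library Rbfox1 stood above control in 6 of them and below in 3. Over all nuclei it had a level in CPM of 843 (829 to 858) for control, 286 (277 to 295) for CBP-ablated and 934 (920.2 to 948) for p300-ablated nuclei. The log2 ratio to control was −1.56 (−1.61 to −1.51) for CBP-ablated, a level 0.339 times that of control, and 0.15 (0.11 to 0.18) for p300-ablated. Between the ablated libraries themselves, without the shared control, the log2 ratio was −1.71 (−1.76 to −1.66). Only the CBP-ablated library was low over all nuclei. Fewer nuclei held a Rbfox1 UMI there as well: 52.2% (50.8 to 53.6) of control nuclei, 29.5% (27.9 to 31.2) of CBP-ablated and 59.5% (58.1 to 60.9) of p300-ablated nuclei. After each nucleus was thinned to 1500 UMIs the shares were 42.8%, 20.2% and 46.6%.

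By class, Rbfox1 was highest in neuron-like (2659.9 CPM over the 3 libraries), proliferating-like (2285) and NPC/OPC-like nuclei (1345), followed by astrocyte-like (805) and Kcnj6/Nell2 nuclei (762), whose intervals overlapped. It was lowest in glial progenitor-like nuclei (64.6), where subtracting 5% or 10% of each library as free RNA left 30.2 or 4.8 CPM. A UMI of Rbfox1 was seen in 94.8% (92.3 to 96.7) of proliferating-like nuclei, at a median depth of 4367 UMIs, and in 14.1% (10.5 to 18.5) of microglia-like nuclei, a type that should lack it, at 1151 UMIs. The study listed Rbfox1 among the markers of its proliferating cells, and this choice was made on the same nuclei.

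In neuron-like nuclei Rbfox1 had 2822 CPM (control), 1747 CPM (CBP-ablated) and 4159 CPM (p300-ablated). In NPC/OPC-like nuclei it had 1538 CPM (control), 696 CPM (CBP-ablated) and 1384 CPM (p300-ablated). In Kcnj6/Nell2 nuclei it had 802 CPM (control), 216 CPM (CBP-ablated) and 964 CPM (p300-ablated). The CBP-ablated library was lowest in all of these classes, while the p300-ablated library was highest in neuron-like and Kcnj6/Nell2 nuclei. The log2 ratios of CBP-ablated to control were −0.69 (−0.82 to −0.56) in neuron-like, −1.14 (−1.24 to −1.05) in NPC/OPC-like, −1.89 (−2.12 to −1.66) in Kcnj6/Nell2 and −0.90 (−1.03 to −0.77) in proliferating-like nuclei. They were −2.54 (−2.90 to −2.19) in RGC/PSC-like and −2.08 (−2.31 to −1.85) in committed oligodendrocyte precursor-like nuclei, which stood furthest from control. The others were −0.79 (−1.12 to −0.45) in oligodendrocyte-like, −0.52 (−1.03 to −0.03) in glial progenitor-like and −0.50 (−1.83 to 0.66) in microglia-like nuclei, and only the last of the 9 intervals reached 0. An interval below 0 in at least 8 of the 9 classes was found for 0.177% of the 11883 genes tested (21 genes, counting Rbfox1), and a lower level in all 9 classes for 1.09%. No other of the 10 genes met either. The 2 counts were added after the values of Rbfox1 were seen, so they describe its pattern and are no test of it. Genes with few UMIs can seldom meet the count of intervals below 0, since their intervals are wide. The count of lower levels uses no interval. The classes come from the same libraries, so they are not separate observations. Both counts were made without subtracting free RNA, and the glial progenitor-like ratio was not recomputed with it subtracted. Such a subtraction follows the level of the whole library, 843 CPM in control and 286 in CBP-ablated, so it takes more from control. In classes of low level the sign of the ratio can therefore turn. Glial progenitor-like nuclei had 62.4 CPM (control) and 43.4 CPM (CBP-ablated), and microglia-like nuclei 109 and 77.2.

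The share of NPC/OPC-like nuclei with a Rbfox1 UMI, after thinning to 1500 UMIs, was 73.8% in control, 49.0% in CBP-ablated and 70.2% in p300-ablated. When the CBP-ablated class levels were weighted by the control mix of classes, without the astrocyte-like class, the log2 ratio of Rbfox1 was −1.22, in place of −1.56, and that of the p300-ablated library was 0.0061 in place of 0.15. With 10% of each library subtracted as free RNA, that in oligodendrocyte-like nuclei was −0.019, and that in RGC/PSC-like nuclei −3.35. In the p300-ablated library Rbfox1 was higher than control in neuron-like nuclei, with a log2 ratio of 0.56 (0.44 to 0.68), and lower in committed oligodendrocyte precursor-like nuclei, with −0.63 (−0.85 to −0.41). The value in microglia-like nuclei there, 2.13 (1.49 to 2.79), came from few nuclei: 43 of the 67 UMIs lay in 1 of 53 nuclei.

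**Figure D3:**
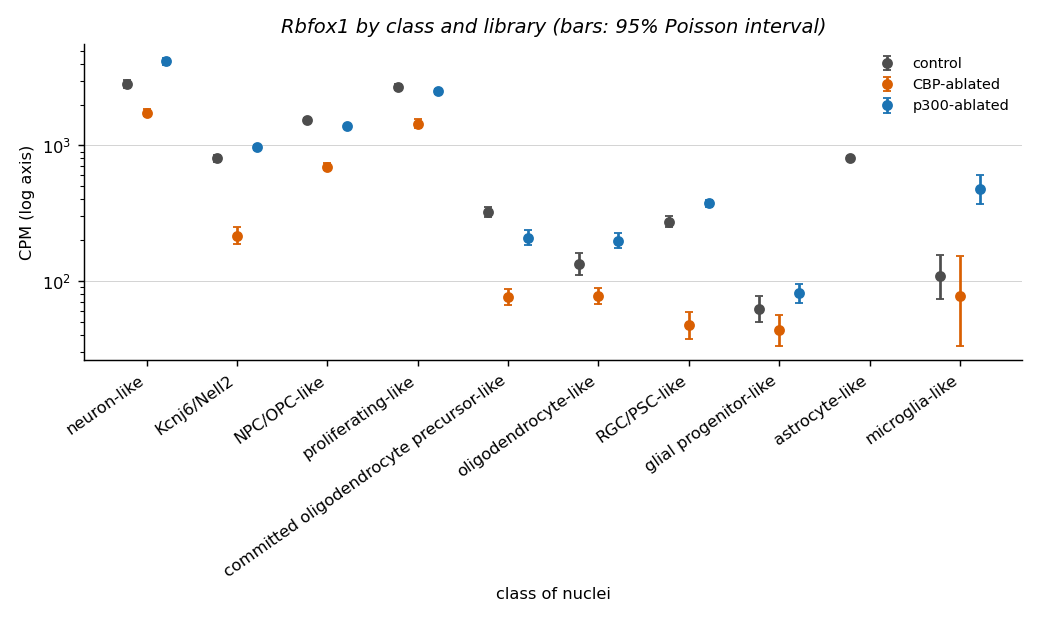
Rbfox1 level (CPM, log axis) in each class of nuclei (horizontal axis) and library (colour), with 95% Poisson intervals as bars. The CBP-ablated point is the lowest of the 3 in all 9 classes that hold nuclei of all libraries, from 1747 CPM in neuron-like to 43.4 in glial progenitor-like nuclei, and the astrocyte-like class has a control point only.

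Rbfox2 (ENSMUSG00000033565, chromosome 15 from 77078990 to 77307004), the widely expressed paralog, varied less between classes than Rbfox1. Over all nuclei it had 332 CPM (control), 266 CPM (CBP-ablated) and 325 CPM (p300-ablated), with log2 ratios of −0.32 (−0.38 to −0.26) and −0.029 (−0.082 to 0.024). Its level ran from 88.8 CPM in microglia-like to 496 in neuron-like nuclei, 5.59-fold against 41.1-fold for Rbfox1 and 5.55-fold for Elavl2. Within the 9 classes its CBP-ablated ratios lay between −0.16 and 0.39, and 1 interval, in committed oligodendrocyte precursor-like nuclei (0.22, 0.019 to 0.42), did not reach 0. The same held in the p300-ablated library for Kcnj6/Nell2 nuclei (0.17, 0.0055 to 0.34). Astrocyte-like nuclei gave 31.5% of the Rbfox2 UMIs of control. Without them the whole-library log2 ratio of CBP-ablated was −0.17, and with the other classes also weighted as in control it was 0.032. The part of the mix of classes in the lower value was not otherwise tested.

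Rbfox3 (ENSMUSG00000025576, chromosome 11 from 118489762 to 118911597), the gene for NeuN, was low and concentrated in neuron-like nuclei. It had 329 CPM there, then 31.9 in Kcnj6/Nell2 and 27.1 in NPC/OPC-like nuclei, which overlapped, and at most 4.22 in the oligodendrocyte, RGC/PSC-like, glial progenitor-like and astrocyte-like classes. No UMI was found in 311 microglia-like nuclei of a median depth of 1151 UMIs, which allows a share of up to 0.965% with a UMI (3 counts of the total) or 1.18% as the upper Clopper-Pearson bound. Of neuron-like nuclei, with a median of 3297 UMIs, 50.1% (44.8 to 55.4) held one. Over all nuclei it had 21.8 CPM (control), 20.2 CPM (CBP-ablated) and 19.5 CPM (p300-ablated), and neither log2 ratio, −0.10 (−0.34 to 0.13) or −0.16 (−0.37 to 0.056), stood clear of 0. Within neuron-like nuclei its level was 470.3 CPM (control), 246 CPM (CBP-ablated) and 345 CPM (p300-ablated). Both ablated libraries were therefore below control in CPM, at −0.93 (−1.27 to −0.59) and −0.45 (−0.82 to −0.083) on the log2 scale. The share of these nuclei with a Rbfox3 UMI was instead 43.6% in control, 48.5% in CBP-ablated and 60.9% in p300-ablated. After thinning it was 31.9% in control, 29.3% in CBP-ablated and 36.1% in p300-ablated. The lower CPM was thus not matched by a clearly lower share of nuclei with a UMI. The directions of the CPM ratios turned when each nucleus was put in the class of its highest marker score. That gave 195 control, 178 and 177 neuron-like nuclei and ratios of 0.39 and 0.073. Rbfox2 stood at 0.02 (−0.26 to 0.31) in the CBP-ablated neuron-like nuclei as clustered.

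Celf4 (ENSMUSG00000024268, chromosome 18 from 25477632 to 25754157), which encodes an RNA-binding protein of neurons, was the gene most confined to one class. It had 2951 CPM in neuron-like nuclei and 87.7 in NPC/OPC-like nuclei, the next class, and a UMI was found in 98.3% (96.4 to 99.4) of neuron-like against 1.93% (0.711 to 4.15) of microglia-like nuclei. Over all nuclei it had a level in CPM of 79.8 (75.5 to 84.2) for control, 174 (167 to 181) for CBP-ablated and 110.3 (106 to 115) for p300-ablated nuclei, with log2 ratios of 1.12 (1.02 to 1.22) and 0.47 (0.37 to 0.57). Neuron-like nuclei gave 53.6% of the Celf4 UMIs in control, 84.6% in CBP-ablated and 50.6% in p300-ablated. Within those nuclei Celf4 had 2261 CPM (control), 3163 CPM (CBP-ablated) and 3219 CPM (p300-ablated), higher than control in both ablated libraries, with ratios of 0.48 (0.36 to 0.61) and 0.51 (0.37 to 0.65) that share the control. With the class of highest marker score they were 1.24 and 0.44. Among NPC/OPC-like nuclei the CBP-ablated library was instead below control, −0.61 (−0.98 to −0.25). In oligodendrocyte-like nuclei it was above control, 2.30 (0.88 to 4.22), on 69 UMIs against 4. The Celf4 level of that class over the 3 libraries, 17.1 CPM, fell to 3.96 with 10% of each library subtracted as free RNA. With the astrocyte-like class left out and the mix of the other classes held at that of control, the CBP-ablated whole-library ratio was 0.18 in place of 1.12.

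Celf2 (ENSMUSG00000002107, chromosome 2 from 6539694 to 7509563), a regulator of splicing in brain and immune cells, was highest in neuron-like nuclei, at 4937 CPM, and next in RGC/PSC-like nuclei with 1449. All 357 neuron-like nuclei held a UMI of it. In microglia-like nuclei it was present at 712 CPM and in 53.7% (48.0 to 59.3) of nuclei, where Celf4 had 11.3 and Celf5 5.67 CPM. The Celf2 level there was close to the 704 CPM of astrocyte-like nuclei. Over all nuclei it had 818 CPM (control), 806 CPM (CBP-ablated) and 898 CPM (p300-ablated), and its ratios of −0.022 (−0.059 to 0.015) and 0.13 (0.10 to 0.17) were small. Within classes its CBP-ablated ratios ran from −0.35 (Kcnj6/Nell2) to 0.28 (RGC/PSC-like), all under 1.5-fold. In Kcnj6/Nell2 nuclei it had 999 CPM (control), 785 CPM (CBP-ablated) and 846 CPM (p300-ablated), and both ablated libraries were below control, though with the class of highest marker score the CBP-ablated ratio was 0.17.

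Celf5 (ENSMUSG00000034818, chromosome 10 from 81459227 to 81482709), another brain CELF gene, was sparse, with 206, 122 and 187 UMIs, or 12.6 CPM (control), 9.57 CPM (CBP-ablated) and 9.91 CPM (p300-ablated). The log2 ratios were −0.40 (−0.74 to −0.07) and −0.35 (−0.64 to −0.058). It was highest in neuron-like nuclei (83.8 CPM), where 31, 45 and 27 UMIs left any difference between libraries not detectable at this depth. Elsewhere it had at most 12.1 CPM in a named class. Intervals off 0 were found in oligodendrocyte-like nuclei for CBP-ablated (−2.54, −5.23 to −0.18), on 5 and 3 UMIs, and in RGC/PSC-like (−1.47, −2.29 to −0.68) and glial progenitor-like nuclei (−1.66, −3.34 to −0.17) for p300-ablated.

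**Figure D4:**
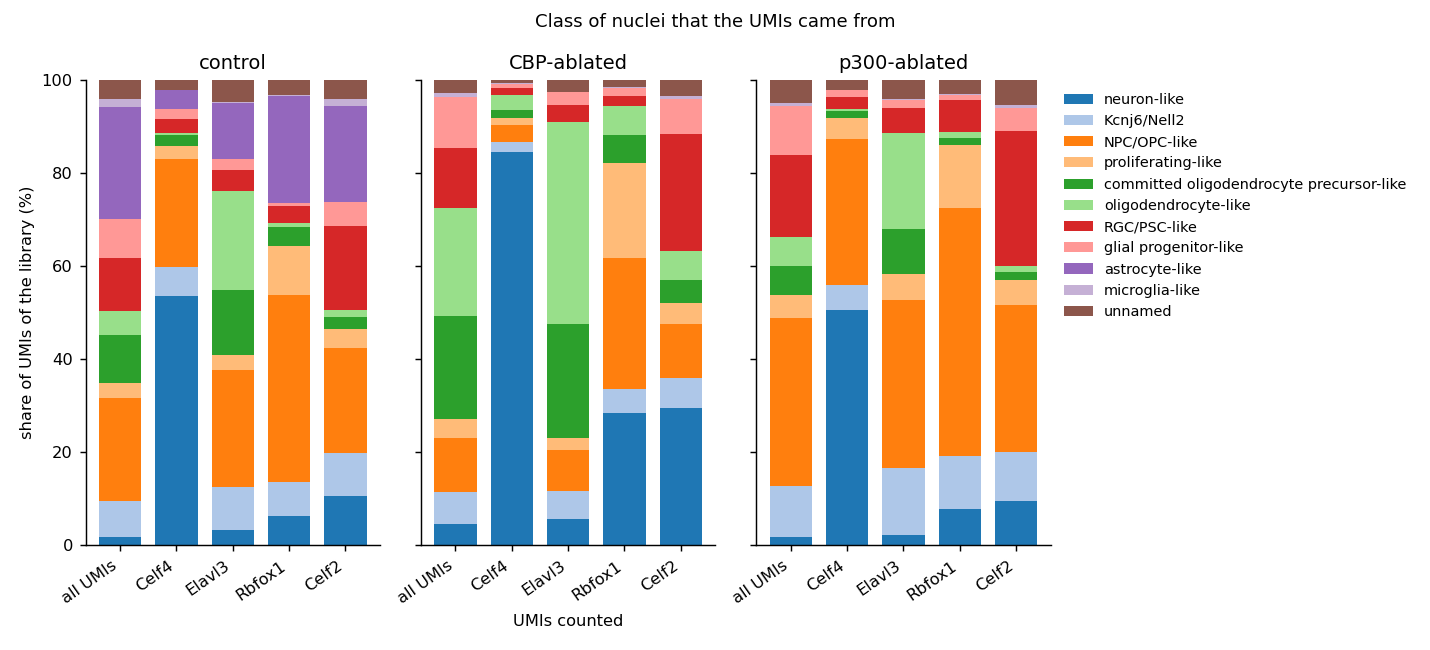
Share of UMIs (%) that came from each class of nuclei (colours), for all UMIs and for Celf4, Elavl3, Rbfox1 and Celf2, in each library (panels). Celf4 UMIs came mostly from neuron-like nuclei, 84.6% in the CBP-ablated library, while 43.5% of its Elavl3 UMIs came from oligodendrocyte-like nuclei.

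Elavl3 (ENSMUSG00000003410, chromosome 9 from 22015005 to 22052023), whose product HuC is a common neuronal stain, was highest not in neurons but in oligodendrocyte-like nuclei. It had 303 CPM there, 162 in neuron-like and 147 in committed oligodendrocyte precursor-like nuclei, the last of which overlapped with neuron-like. Oligodendrocyte-like nuclei stood above neuron-like nuclei in each library: oligodendrocyte-like nuclei had 338 CPM (control), 278 CPM (CBP-ablated) and 342 CPM (p300-ablated), and neuron-like nuclei had 146 CPM (control), 184 CPM (CBP-ablated) and 137 CPM (p300-ablated). A UMI was found in 75.7% (72.6 to 78.6) of oligodendrocyte-like nuclei at a median depth of 5811 UMIs, in 40.1% (34.9 to 45.3) of neuron-like nuclei at 3297 and in 2.25% (0.910 to 4.58) of microglia-like nuclei. Neither Elavl2 nor Elavl4 was high in the oligodendrocyte-like class, at 19.1 and 9.64 CPM. Whether the UMIs came from introns or from the spliced transcript is not recorded in the matrices.

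Over all nuclei Elavl3 had a level in CPM of 82.3 (77.9 to 86.8) for control, 148 (141 to 155) for CBP-ablated and 104 (99.4 to 109) for p300-ablated nuclei, with ratios of 0.85 (0.74 to 0.95) and 0.34 (0.24 to 0.44). Oligodendrocyte-like nuclei gave 43.5% of the Elavl3 UMIs of the CBP-ablated library and 21.2% of those of control, and within them the CBP-ablated level was lower, −0.28 (−0.48 to −0.082). In committed oligodendrocyte precursor-like nuclei it was higher than control in both ablated libraries, 0.51 (0.26 to 0.76) and 0.50 (0.20 to 0.80). With the astrocyte-like class left out and the other classes weighted as in control, the whole-library ratio of the CBP-ablated library was 0.25.

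Nova1 (ENSMUSG00000021047, chromosome 12 from 46694517 to 46818929), a neuron-specific splicing regulator in the adult brain, was low in neuron-like nuclei and high in some of the progenitor classes. It had 796 CPM in NPC/OPC-like, 733 in proliferating-like and 652 in Kcnj6/Nell2 nuclei, then 299 in committed oligodendrocyte precursor-like nuclei. Neuron-like nuclei had 120.5, which overlapped with glial progenitor-like (122) and microglia-like (111) nuclei, and RGC/PSC-like nuclei were lowest with 88.4. Its share of nuclei with a UMI was 87.0% (85.8 to 88.2) in NPC/OPC-like, 26.1% (21.6 to 30.9) in neuron-like and 13.5% (9.91 to 17.8) in microglia-like nuclei. Over all nuclei Nova1 had 369 CPM (control), 366 CPM (CBP-ablated) and 412 CPM (p300-ablated) and ratios of −0.013 (−0.069 to 0.042) and 0.16 (0.11 to 0.20). Without the astrocyte-like nuclei of control these ratios were −0.28 and −0.11, and with the other classes also weighted as in control 0.32 and −0.24.

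Within classes, however, Nova1 stood on opposite sides of control in the ablated libraries in 3 classes, with intervals clear of 0. In Kcnj6/Nell2 nuclei it had a level in CPM of 633 (589 to 678) for control, 1246 (1173 to 1323) for CBP-ablated and 417 (390.0 to 446) for p300-ablated nuclei. The CBP-ablated library was higher than control, 0.98 (0.84 to 1.11), and the p300-ablated library lower, −0.60 (−0.74 to −0.46). The same order of libraries was seen with smaller steps in NPC/OPC-like nuclei, with 864 CPM (control), 976 CPM (CBP-ablated) and 720.5 CPM (p300-ablated), and in proliferating-like nuclei, with 695 CPM (control), 1006 CPM (CBP-ablated) and 607 CPM (p300-ablated). It was not seen in committed oligodendrocyte precursor-like nuclei, where both ablated libraries were below control, −0.36 (−0.51 to −0.20) and −0.30 (−0.50 to −0.11). The higher CBP-ablated value in Kcnj6/Nell2 nuclei changed with how the class was drawn: at a resolution of 1.2, where the class held 240, 22 and 479 nuclei in the order control, CBP-ablated, p300-ablated, the ratio was 0.0093, and −0.36 for p300-ablated. With the class of highest marker score they were 0.24 and −0.37.

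Elavl2 (ENSMUSG00000008489, chromosome 4 from 91250763 to 91400785), the gene for HuB, showed the same order of libraries in the Kcnj6/Nell2 class. It had a level in CPM of 89.5 (73.7 to 108) for control, 139.8 (116 to 167) for CBP-ablated and 50.5 (41.3 to 61.1) for p300-ablated nuclei, with ratios of 0.64 (0.26 to 1.03) and −0.83 (−1.22 to −0.43). At a resolution of 1.2, where the class held only 22 CBP-ablated nuclei, these were 1.01 and −0.19. With the class of highest marker score the CBP-ablated ratio was 0.35. Over all nuclei it differed little, with 39.1 CPM (control), 46.2 CPM (CBP-ablated) and 37.3 CPM (p300-ablated) and ratios of 0.24 (0.079 to 0.41) and −0.064 (−0.22 to 0.093). Its levels in Kcnj6/Nell2 (80.5 CPM), neuron-like (76.5), proliferating-like (70.6) and NPC/OPC-like nuclei (59.7) each overlapped with the next. In neuron-like nuclei the p300-ablated library had 11 UMIs, or 33.6 CPM against 104 in control (−1.63, −2.77 to −0.60).

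**Figure D5:**
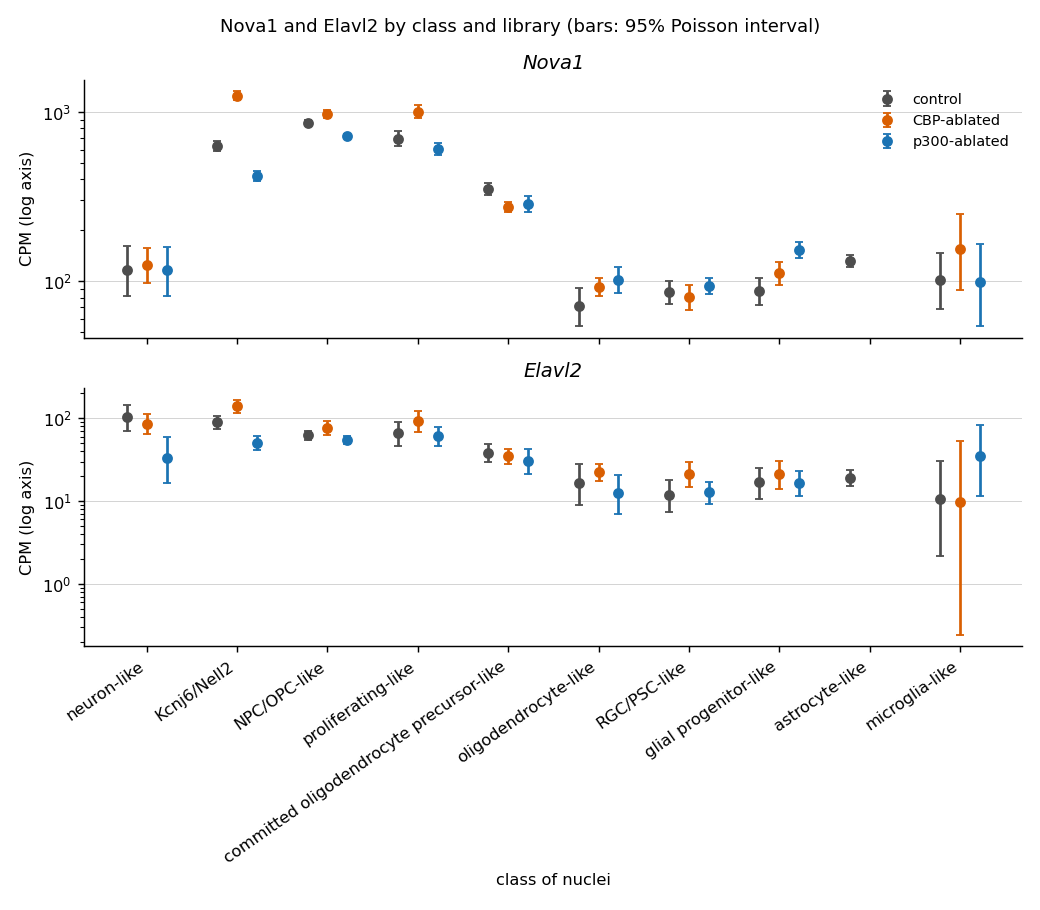
Nova1 (top) and Elavl2 (bottom) level (CPM, log axes) by class of nuclei (horizontal axis) and library (colour), with 95% Poisson intervals as bars. In the Kcnj6/Nell2 class the CBP-ablated point is above and the p300-ablated point below control for both genes, at 1246 and 417 CPM of Nova1.

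Elavl4 (ENSMUSG00000028546, chromosome 4 from 110203722 to 110351909), the gene for HuD, had 27.8 CPM (control), 20 CPM (CBP-ablated) and 38.8 CPM (p300-ablated). Its whole-library ratios had opposite signs, −0.47 (−0.70 to −0.25) and 0.48 (0.31 to 0.66), but no interval within any of the 9 classes stood clear of 0 in either library. NPC/OPC-like nuclei gave 47.0% in control, 28.2% in CBP-ablated and 60.8% in p300-ablated of its UMIs, and themselves made up 22%, 11.6% and 36.0% of all UMIs. It had 62.1 CPM in proliferating-like, 61.6 in NPC/OPC-like and 28.5 in neuron-like nuclei, with 10, 19 and 6 UMIs in the last.

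The 10 genes were also counted within the NPC/OPC-like and Kcnj6/Nell2 classes. Among NPC/OPC-like nuclei, in the CBP-ablated library 2 of the 9 genes that passed 100 UMIs were at least 1.5-fold lower (Rbfox1 and Celf4) and none higher, against 3.85% and 3.78% of all genes. In the p300-ablated library none of 10 passed 1.5-fold there, against 2.51% lower and 2.16% higher. In Kcnj6/Nell2 nuclei of the CBP-ablated library, Rbfox1 was lower and Elavl2 and Nova1 higher among 8 genes, against 10.8% and 13.1%. In the p300-ablated library 3 of 9 were lower there (Rbfox3, Elavl2 and Nova1) and none higher, against 2.92% and 3.68%. Rbfox3 had 43.1 CPM in control and 23.1 in p300-ablated, on 54 and 48 UMIs (−0.90, −1.49 to −0.31). Beside these values, the summed level of 10 general neuronal markers in this class was 1429.7 CPM in control, 2020.3 in CBP-ablated and 1001 in p300-ablated. Most of it was Map2, at 1208, 1422 and 826 CPM, while Syt1, a synaptic vesicle calcium sensor, had 47.1, 489 and 23.6 CPM. In control the same sum was 1261 CPM in NPC/OPC-like, 1282 in committed oligodendrocyte precursor-like and 3461 in neuron-like nuclei. The part of these markers in the values above was not tested.

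Other RNA-binding protein genes, 28 genes of 9 lists (remaining paralogs, polypyrimidine tract binding, microexon, muscleblind-like, STAR, Musashi, FMRP, CPEB and Pumilio), were counted by the same measure. Of the 26 that passed 100 UMIs, 1 was at least 1.5-fold lower and none higher in the CBP-ablated library, and none lower and 2 higher in the p300-ablated library, with medians of 0.056 and 0.017. The gene lower in CBP-ablated was Cpeb1, a regulator of translation, with 97.2, 63.1 and 77.1 CPM (−0.62, −0.75 to −0.50). Those higher in p300-ablated were Celf3, with 4.23 and 6.67 CPM (0.66, 0.22 to 1.10), and Srrm3, a regulator of neuronal microexons, with 17.7 and 28.6 (0.70, 0.49 to 0.91). Celf3 was also above control in CBP-ablated, with 6.28 CPM (0.57, 0.086 to 1.06), just under 1.5-fold. Of the 5 remaining paralogs of the 10 genes, the 4 that passed the filter kept within 1.5-fold in the CBP-ablated library, and Celf6 had too few UMIs (18 in control and 8 in CBP-ablated). Nova2 had 74.2, 80.6 and 101 CPM, Celf1 239, 229 and 241, and Elavl1 117, 112 and 119.9. Unlike Nova1, Nova2 was highest in neuron-like nuclei (144 CPM, against 104 in NPC/OPC-like).

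Levels of these regulators over the classes, with the 3 libraries together, differed in width. Ptbp1, which represses neuronal exons in progenitors, had 4.07 CPM in neuron-like and 16.6 in RGC/PSC-like nuclei, while its neuronal paralog Ptbp2 had 168 and 107. Srrm4, the other microexon regulator, had 311 CPM in neuron-like and 1.76 in committed oligodendrocyte precursor-like nuclei, while Qk, a glial splicing factor of the STAR family, had 1174 in neuron-like and 5347 in committed oligodendrocyte precursor-like nuclei. These high members of the other lists kept within 1.5-fold of control in both ablated libraries: Ptbp3 (0.031 and 0.026), Mbnl2 (0.21 and 0.022), Mbnl1 (−0.31 and −0.37), Khdrbs2 (0.01 and 0.28), Msi2 (−0.15 and 0.03), Msi1 (−0.18 and −0.015), Fxr1 (0.18 and 0.084), Fxr2 (0.10 and −0.29), Cpeb3 (−0.23 and 0.0084), Cpeb4 (−0.46 and −0.53) and Pum2 (0.11 and 0.057), as log2 ratios of CBP-ablated and p300-ablated.

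Across the 32 sums of a class in a library that held at least 50 nuclei, the 10 genes split into groups by Pearson's r of their log2(CPM + 10). The sums share libraries and depth, so r is a description without a p. Rbfox3 and Celf4 were most alike (r = 0.95), then Celf4 and Celf5 (r = 0.89) and Rbfox3 and Celf5 (r = 0.84), whereas Nova1 was closest to Elavl4 (r = 0.81) and near 0 with Celf2 (r = −0.018). Members of 1 family were not always alike: r was 0.74 for Elavl2 and Elavl4 but 0.25 for Elavl3 and Elavl4. Among 8521 genes with at least 500 UMIs, those most like Nova1 were Prkg2 (r = 0.97), Brinp3 (r = 0.96), Megf11 (r = 0.95). Those most like Rbfox1 were Ryr3 (r = 0.89), Camk2b (r = 0.88), Sdk1 (r = 0.87), those most like Elavl3 Sema6a (r = 0.92), Kirrel3 (r = 0.92), Prkcz (r = 0.92), and those most like Celf4 Galntl6 (r = 0.96), Ppp1r12b (r = 0.96), Srrm3 (r = 0.96). For the other members the leading genes were Grip1 (r = 0.91), Dtnb (r = 0.91), Bcr (r = 0.90) with Rbfox2, Srrm3 (r = 0.96), Mast1 (r = 0.95), Bcl11b (r = 0.94) with Rbfox3, Plxna2 (r = 0.90), Sipa1l1 (r = 0.86), Mllt3 (r = 0.86) with Celf2, Cdh8 (r = 0.91), Cpne4 (r = 0.90), Cntnap2 (r = 0.90) with Celf5, Macroh2a2 (r = 0.89), Cenpv (r = 0.88), Zfp711 (r = 0.86) with Elavl2 and Sgcz (r = 0.93), Gabra3 (r = 0.91), Cntn4 (r = 0.89) with Elavl4.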

How the data were processed

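Per the labels and methods, the authors aligned reads of 10x 3′ v3 libraries to GRCm38 (annotation version 94) with Cell Ranger 3.1 and deposited raw UMI counts over exons and introns, and FastQC 0.11.9 and Seurat 2.3.4 appear in the submitters' processing notes. All 12549 nuclei deposited were used, each with at least 500 UMIs. Clusters of the merged nuclei came from Seurat 5.3.0 (R 4.3.3; 1000 most dispersed genes of each library, 1576 in all, 20 components, 30 neighbours, Louvain resolution 0.6, seed 1). A cluster was named when at least 60% and at least 3 of a list's markers had a UMI in 10% of its nuclei and 2 times the level of all other nuclei. The 2 clusters without a name were kept in whole-library sums; 1 of them held 191 called doublets among 252 nuclei. Doublets were scored with Scrublet (scanpy 1.11.5), calling the top 0.8% per 1000 nuclei (191, 73 and 173), and were removed only as an alternative. UMIs were summed per library and class and divided by their total (CPM), in Python 3.11.15 (scipy 1.17.1, pandas 2.3.3, numpy 2.4.6; figures in matplotlib 3.10.9). Genes entered counts past 1.5-fold with 100 UMIs in the 2 libraries together, and a count of 0 was read as up to 3 UMIs. The ratios were tested on simulated data.

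The 10 genes and the lists were chosen with earlier results of these data known. Besides the 10, genes were named by rule: those of the other lists past 1.5-fold, up to 2 of the highest level per list, class markers, and the 3 most alike genes of each member. Nova2, Ptbp1, Syt1 and the overlapping genes were named outside it, after their values were seen, as was the count of genes lower in 8 or 9 classes. Gene positions are those of GENCODE M21 and promoter windows those of RefSeq, both on GRCm38. Alternatives were another scaling, mix of classes, depth, doublet, free RNA, filter, resolution, seed and class definition. The values of 1 gene that the rule names are not reported here. No protein sequence or genome was used here.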

Additional observations from a re-analysis of the deposited data

Results flagged for a closer look

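Nova1 stood out because its p300-ablated ratio to control passed 1.5-fold in opposite directions in different classes. The log2 ratio was −0.60 (−0.74 to −0.46) in Kcnj6/Nell2 nuclei and 0.81 (0.50 to 1.13) in glial progenitor-like nuclei, where it had 87.3 CPM (control), 111 CPM (CBP-ablated) and 153 CPM (p300-ablated) on 119, 154 and 304 UMIs. The difference between the classes was not tested, since each rests on 1 library per condition. Over the alternatives the Kcnj6/Nell2 value ran from −0.66, with 10% of each library subtracted as free RNA, to −0.36 at a resolution of 1.2. The latter is under 1.5-fold. The glial progenitor-like value was not recomputed under the alternatives.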

How the results depend on the processing

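For CBP-ablated, the whole-library median log2 ratio of the 10 genes was 0.038 with the control mix of classes without the astrocyte-like class, −0.22 without the astrocyte-like cluster, 0.13 after thinning to 1500 UMIs and 0.11 with each nucleus weighted equally, in place of −0.063. With the control mix, 0 genes were at least 1.5-fold higher (Celf4 at 0.18 and Elavl3 at 0.25), and without the astrocyte-like cluster 2 were at least 1.5-fold lower (Rbfox1 and Elavl4). No share of all genes past 1.5-fold is given under these settings, so these counts cannot be set against a background. For p300-ablated the median was 0.18 centred on the median of all genes, 0.013 with the control mix and 0.10 without the astrocyte-like cluster, in place of 0.14. Among single genes whose counting interval excluded 0, signs turned for Rbfox2 in CBP-ablated (0.032) and Nova1 in p300-ablated (−0.24) with the control mix, and for Nova1 in p300-ablated without the astrocyte-like cluster (−0.11). Within classes they turned for Rbfox1 in p300-ablated NPC/OPC-like nuclei at a resolution of 1.2 (0.0083), and with the class of highest marker score for Celf2 in CBP-ablated Kcnj6/Nell2 nuclei (0.17) and Rbfox3 in neuron-like nuclei (0.39 and 0.073). Values whose interval reached 0 turned as well, among them, in CBP-ablated, Nova1 (0.32) with the control mix, Rbfox3 (0.13) and Celf2 (0.12) after thinning, and with the class of highest marker score Celf4 in Kcnj6/Nell2 nuclei (1.37 in place of −0.23) and Nova1 in neuron-like nuclei (−1.01 in place of 0.10). The cause was not tested. Rbfox1 stayed lower in CBP-ablated under all 7 whole-library alternatives (−1.62 to −1.22) and in the 5 classes recomputed, among which Kcnj6/Nell2 nuclei ran from −2.08 to −0.87 and oligodendrocyte-like nuclei from −1.07 to −0.019.

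Subtracting free RNA in the proportions of the library leaves whole-library ratios as they are by construction, and at a resolution of 0.3 no Kcnj6/Nell2 class was found, so neither gave a value. With 1 library a condition, leaving out a replicate was not possible. No paired analysis was possible because each condition has 1 library and no test was made.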
